A study of Mus musculus with 16 samples.

Results

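The subject is the spread of Havcr1, an injury gene of the tubule, and of what goes with it, among 6 of the 16 libraries of a mouse kidney RNA sequencing study. The 6 were chosen by their measured totals, as the libraries from kidneys after ischemia reperfusion with more than 3000000 deposited counts. They were then ordered by their measured Havcr1 level, and each of the other 7683 genes with a mean of 20 or more CPM (counts scaled to a common library total) over the 6 libraries was set against that order. All mice were male C57BL/6, 12 weeks old. They had ischemia reperfusion or normal kidneys and received vehicle or PJ34, an inhibitor of poly(ADP-ribose) polymerases (PARP), which gives 4 groups of 4 libraries: IRV (injured, vehicle), IRP (injured, PJ34), NV (normal, vehicle) and NP (normal, PJ34). The 6 libraries are all 4 of IRP and replicates 3 and 4 of IRV, named here by group and replicate number (IRP2, IRV3). The series' own text states that the mice were followed to learn the long-term effect of PJ34; the labels used here do not state the time after surgery, and no group comparison between PJ34 and vehicle was made.

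Havcr1 encodes KIM-1, a surface receptor that proximal tubule cells put on their apical membrane when they are damaged and that lets them take up dying neighbours. After ischemia, proximal tubule cells lose part of their transport and mitochondrial programme, some stay in an injured state that recruits leukocytes, and interstitial fibroblasts lay down matrix. In whole-kidney RNA these processes appear together, and fewer cells of a type and less RNA per cell cannot be told apart.

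Havcr1 stood at 27.0, 52.2, 104, 142, 144 and 167 CPM in IRP2, IRP3, IRP4, IRV3, IRP1 and IRV4, from 120, 284, 522, 811, 944 and 1037 counts. This order, lowest first, is used for every list of 6 values that follows. The 95% exact Poisson intervals, which cover counting error only, separated the 3 lowest libraries from each other and from the rest (22.4 to 32.3 in IRP2, 46.3 to 58.7 in IRP3, 95.1 to 113 in IRP4). IRV3 and IRP1 had overlapping intervals (132 to 152 and 135 to 153), so their order is not resolved. The 3 lowest libraries were all from PJ34-treated mice, and the 2 vehicle libraries held ranks 4 and 6; Havcr1 is the value that set the order, so these levels are a description with no test. The normal kidneys had 0.639 to 8.53 CPM, from 1 to 11 counts, and the other 2 injured libraries, IRV1 and IRV2, had 94.0 and 65.7 CPM. These libraries were scaled apart from the 6, so levels of the 2 sets are not on exactly the same scale.

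**Figure D1:**
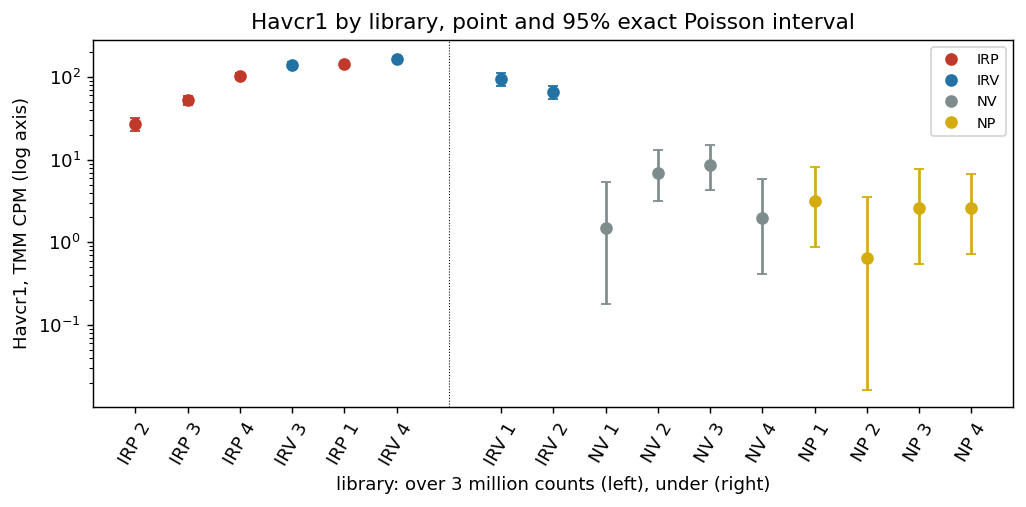
Havcr1 level by library in TMM-scaled CPM on a log axis, points with 95% exact Poisson intervals; the 6 injured libraries over 3000000 counts are left of the dotted line, the other 10 right of it. The 6 libraries span 27.0 to 167 CPM and the 8 normal kidneys lie between 0.639 and 8.53 CPM. Libraries left and right of the line were scaled as separate sets.

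The 6 libraries held 4963638 to 6169748 counts. The nearest library outside the limit was IRV2 with 1659983, and the 10 shallow libraries held 973812 to 1659983. The 2 sets differed in more than depth. Olfactory, vomeronasal, taste and trace amine receptor genes summed to 339 to 658 CPM in the 6 and to 5279 to 10330.5 CPM in the shallow libraries. The cause was not tested. At the limit of 20 CPM, Galnt7 and Ssbp1 lay just inside and Khdrbs3 and Islr just outside, all of them between 19.995 and 20.003 CPM. IRP2 stood apart from the other 5: its scaling factor was 0.854, where the others had 0.988 to 1.093, and transcripts of the mitochondrial genome were 25.1% of its counts, where the others had 13.0% to 19.1%. Median slopes without IRP2 are therefore given beside the gene lists. These measures also ran along Havcr1 over the 6 libraries. Pearson's r with Havcr1 was -0.93 for the mitochondrial share, 0.88 for the scaling factor and 0.52 for total counts. The part of these measures in the slopes was not tested.

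No single gene's slope on Havcr1 passed edgeR's quasi-likelihood test over the 7683 genes at an adjusted p of 0.05, in either direction; the lowest adjusted p was 0.0654, for mt-Nd3. At an unadjusted p under 0.05, 917 genes (11.9%) were higher and 954 genes (12.4%) were lower with Havcr1, and limma-voom also called 0. Over all genes the slopes were balanced, with 52.1% positive, 47.9% negative and a median of 0.01 log2 units per log2 unit of Havcr1. The count of 0 depended on the libraries and on the method. Without IRV4, 540 genes passed as higher and 857 as lower, and in the 4 IRP libraries alone 447 and 497 did. With all 6 libraries, 65 and 51 passed with treatment as a covariate, and 357 and 344 with no filter. DESeq2's Wald test called 229 and 233. Scaling by library totals alone moved the median slope of all genes to 0.10 and the positive share to 81.3%, and then called 1236 genes higher and 67 lower, so slopes are read here relative to the other genes.

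Of 34 gene lists with 3 or more members tested, 23 had a positive median slope and 11 a negative one. In each of the 11 with a negative slope, IRP2 had the highest mean level, and in 20 of the 23 with a positive slope it had the lowest. Without IRP2 and IRP3, the libraries farthest from the median Havcr1, the median slopes of 13 of the 34 lists and the slopes of 40 of 166 named genes turned sign. Among them were the injury markers, from 0.23 to -0.01, the matrix list, from 0.29 to -0.22, and the enzymes of the proximal tubule, from -0.22 to 0.16. The direction of those lists therefore rests on the libraries with the least Havcr1. At the upper end the order of the lists and the order of Havcr1 parted. IRP1 was highest in 20 of the 23 and lowest in 10 of the 11, while IRV4, the library with the most Havcr1, was the highest or the lowest in 0 of them.

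**Figure D2:**
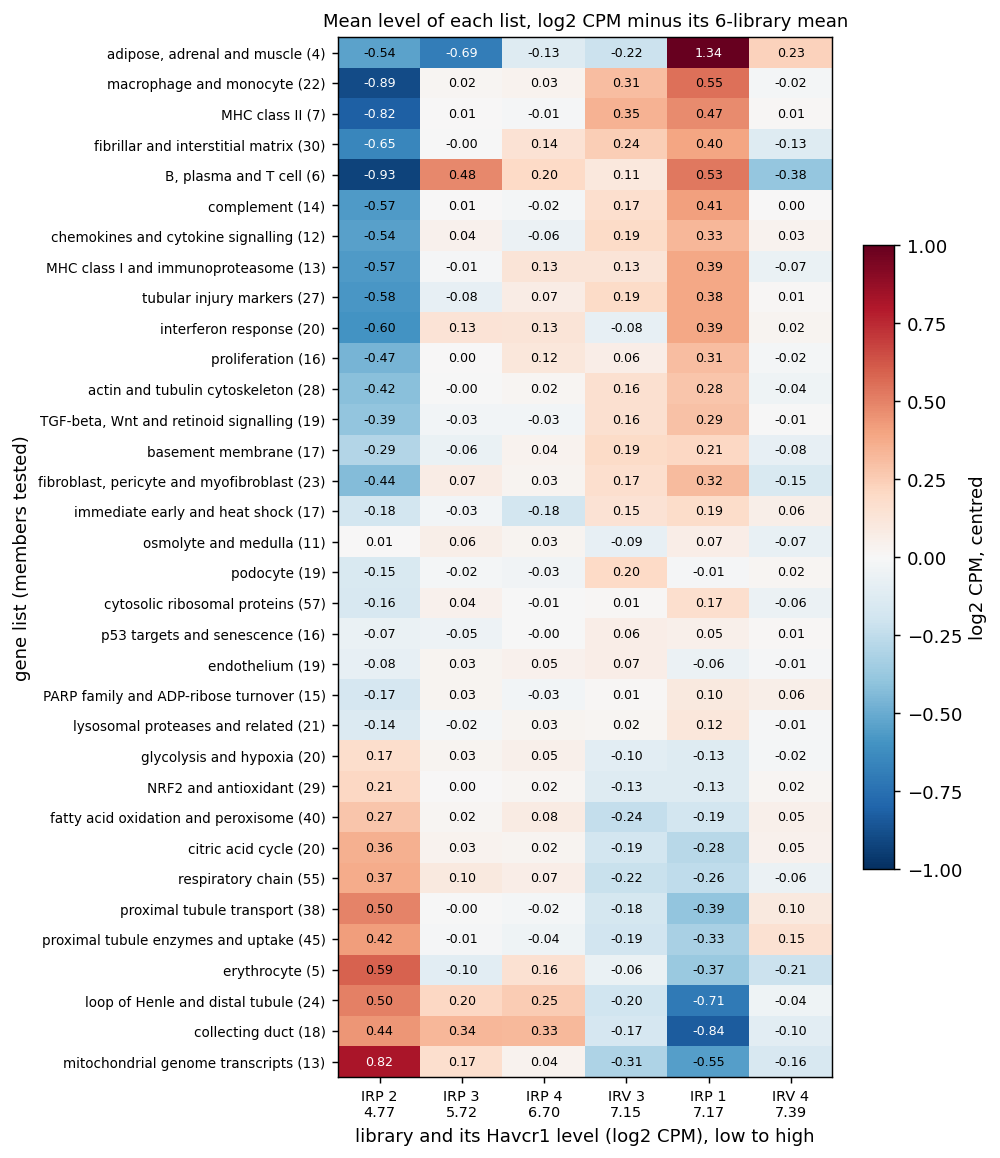
Mean log2 CPM of each gene list in each library, as the difference from the list's mean over the 6 libraries (colour ends at -1 and 1, values printed), with libraries in Havcr1 order and lists sorted by median slope. IRP2 is lowest in 20 of the 23 lists of positive slope and highest in all 11 of negative slope, and IRV4 is at neither end of any in the direction of its Havcr1.

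Other markers of the injured tubule leaned the same way as Havcr1. Of 27 tested, 17 had an unadjusted p under 0.05 as higher and 0 as lower, against 11.9% and 12.4% of all genes, and their median slope was 0.23. Counts of genes higher or lower with Havcr1 in the lists that follow use the same limit and stand beside the same shares of all genes. Spp1, which encodes osteopontin, a secreted phosphoprotein of injured tubules, stood at 1948, 2589, 3091, 3242, 3848 and 3362 CPM. It climbed with Havcr1 over the 4 lower libraries, and only the top pair was out of order. Its slope was 0.32 ± 0.08 (SE; edgeR adjusted p = 0.0951), Pearson's r was 0.96 (exact permutation p = 0.00694 over the 720 orders, adjusted 0.273) and Spearman's rho 0.94 (exact permutation p = 0.0167, adjusted 0.566). Without IRP2 and IRP3, the libraries farthest from the median Havcr1, r was 0.51 over the other 4.

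Vcam1, an adhesion molecule that marks proximal tubule cells in a failed-repair state as well as activated endothelium, had 101, 184, 201, 321, 360 and 262 CPM. It was 3.55-fold higher in its highest library than in its lowest, with a slope of 0.60 ± 0.10 (SE; edgeR adjusted p = 0.085). Cd44, a hyaluronan receptor, had a slope of 0.51 ± 0.09, and Cp, the copper-binding ferroxidase ceruloplasmin, one of 0.50 ± 0.09. Lcn2, which encodes NGAL, an iron-trapping protein used as an injury marker, had 23.6, 45.6, 71.8, 67.9, 84.4 and 60.6 CPM, so that IRV4 came below 3 libraries with less Havcr1; its slope of 0.57 was -0.23 without IRP2 and IRP3. Clu, the secreted chaperone clusterin, was an exception: it peaked in IRP4 at 635, 826, 1026, 782, 687 and 792 CPM. The mean level of the 27 markers ordered the libraries IRP2, IRP3, IRV4, IRP4, IRV3 and IRP1, so they put IRV4 below IRP4, where Havcr1 puts it at the top. For this reason the libraries are described by Havcr1 and not as an order of severity. Without IRP2 the median slope of these markers was 0.15. Krt20, a keratin of injured tubules, lay below the filter, with 3.15 CPM in IRP2 and 15.0 in IRV4.

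The interstitial matrix leaned the same way as the tubular markers. Of 30 fibrillar and interstitial matrix genes tested, 19 had an unadjusted p under 0.05 as higher and 0 as lower, with a median slope of 0.29. Col1a1, which makes most of the type I collagen triple helix, had 195, 393, 476, 507, 624.7 and 350.1 CPM. Col3a1, the type III collagen chain, had 334, 660, 786, 795, 1024 and 638 CPM. In both genes IRP2 lay well below the next library, IRV4 was second lowest and IRP1 was highest. The slopes were 0.45 ± 0.14 and 0.44 ± 0.12 (SE; edgeR adjusted p = 0.123 and 0.112), and without IRP2 and IRP3 they were -0.34 and -0.21.

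In other matrix members IRP2 was again lowest and IRP1 highest. Col12a1, a collagen that sits on the surface of fibrils, had 62.1, 90.9, 151, 160, 238 and 134 CPM and a slope of 0.61 ± 0.12 (SE; edgeR adjusted p = 0.085). Lox and Loxl2, enzymes that cross-link collagen, had slopes of 0.42 ± 0.11 and 0.28 ± 0.07, and Mmp2, a gelatin-cleaving metalloprotease, one of 0.43 ± 0.11. Of 17 basement membrane genes 9 were higher and 0 lower at the same limit, among them Lamb1, a laminin chain, at 0.16 ± 0.05, Col4a1 at 0.30 ± 0.08 and the heparan sulfate proteoglycan Agrn at 0.27 ± 0.07. Col4a4, a chain of the glomerular basement membrane, had 425 CPM in IRP2 and 346 to 382 in the others, with a slope of -0.09 ± 0.04 that turned to 0.01 with library totals alone.

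Among 23 fibroblast, pericyte and myofibroblast genes, 9 were higher and 1 lower. Pdgfra, the growth factor receptor that marks interstitial fibroblasts, had 97.6, 175, 187, 204, 226 and 158 CPM. Acta2, the smooth muscle actin of myofibroblasts and vessels, had 60.9, 90.7, 84.7, 96.4, 119 and 79.8 CPM. IRP2 was lowest and IRP1 highest in both. The member lower with Havcr1 was Igfbp5, an insulin-like growth factor binding protein, at 582, 480, 464, 465, 370 and 457 CPM. Cytoskeletal genes went the same way as the matrix, with 18 of 28 higher and 0 lower. Vcl, the adhesion protein vinculin, had its top value in IRV4, at 119, 148, 145, 163, 168 and 172 CPM. The median slopes without IRP2 were 0.11 for the matrix, 0.04 for fibroblasts, 0.11 for the basement membrane and 0.08 for the cytoskeleton.

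Macrophage and monocyte genes all leaned one way. All 22 tested had a positive slope, and 20 had an unadjusted p under 0.05, with a median slope of 0.39. Ccr2, the chemokine receptor of recruited monocytes, had 28.8, 60.3, 66.4, 93.3, 97.2 and 79.2 CPM and a slope of 0.57 ± 0.09 (SE; edgeR adjusted p = 0.085). Cx3cr1, the fractalkine receptor of resident and patrolling cells, had a slope of 0.59 ± 0.13, and Cybb, the catalytic subunit of the phagocyte oxidase, one of 0.51 ± 0.12. Lyz2, lysozyme of myeloid cells, had 201, 368, 389, 485, 529 and 381 CPM. C1qa, a complement chain made by resident macrophages, had 46.1, 101, 111, 104, 150 and 73.2 CPM, where IRV4 was second lowest and the slope was 0.37 ± 0.17 (SE; edgeR adjusted p = 0.215). Without IRP2 the median slope of the list was 0.17, with 21 of 22 still positive.

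MHC class II genes, which present peptides on macrophages, dendritic cells and B cells, showed 6 of 7 members higher and 0 lower, with a median slope of 0.38. Cd74, the invariant chain that chaperones class II molecules, had 436, 926, 955, 1156, 1225 and 946 CPM. H2-Eb1, a class II beta chain, had 166, 303, 279, 387, 426 and 309 CPM. Ciita, the transcriptional co-activator that these genes share, had 20.9, 36.6, 38.6, 49.7, 51.2 and 38.2 CPM. IRP2 lay far below the next library in each, and IRP1 was highest. Their slopes were 0.44 ± 0.11, 0.39 ± 0.10 and 0.38 ± 0.09 (SE; edgeR adjusted p = 0.101, 0.106 and 0.0998). The list's median slope was 0.19 when IRP2 was left out, with all 7 members still positive.

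Because these genes moved together and share a known promoter layout, the 250 bases before the start of 3 class II genes are shown, with the Y box, the site that the factor NF-Y binds, in capitals. The letters searched were TGATTGG on both strands, in RefSeq windows of build GRCm38.p6. The motifs, and the genes shown, were chosen after the values were seen. H2-Aa lies at chr17:34287824-34288073 on the minus strand, H2-Eb1 at chr17:34305617-34305866 and H2-DMb1 at chr17:34152941-34153190, both on the plus strand.
H2-Aa: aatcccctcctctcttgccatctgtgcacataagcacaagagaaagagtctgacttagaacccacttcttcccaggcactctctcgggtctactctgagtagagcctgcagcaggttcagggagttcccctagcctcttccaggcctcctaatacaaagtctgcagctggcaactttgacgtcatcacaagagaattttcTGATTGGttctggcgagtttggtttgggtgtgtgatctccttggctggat
H2-Eb1: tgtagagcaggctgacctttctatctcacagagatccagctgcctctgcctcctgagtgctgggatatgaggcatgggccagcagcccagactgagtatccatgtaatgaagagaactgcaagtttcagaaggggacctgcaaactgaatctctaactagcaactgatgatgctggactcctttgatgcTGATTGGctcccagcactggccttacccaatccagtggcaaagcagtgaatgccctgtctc
H2-DMb1: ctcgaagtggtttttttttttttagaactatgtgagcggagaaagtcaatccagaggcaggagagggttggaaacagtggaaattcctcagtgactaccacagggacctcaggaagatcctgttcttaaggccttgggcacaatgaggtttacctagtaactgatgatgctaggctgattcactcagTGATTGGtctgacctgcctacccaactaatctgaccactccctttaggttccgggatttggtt

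The match began 50, 61 and 63 bases before the start in H2-Aa, H2-Eb1 and H2-DMb1. These were 3 of the 4 tested class II genes that the promoter table holds, and 8.38% of all 27025 genes in the table had a match in the same window. H2-DMb1 had 32.2, 39.4, 33.4, 53.2, 57.1 and 38.7 CPM and H2-Aa 123, 227, 243, 276, 313 and 222 CPM, so the motif was found in the gene with the weakest slope of the list (0.22 ± 0.10) as well as in H2-Aa (0.37 ± 0.10). A match is a run of letters and not a measured binding site.

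Class I genes and immunoproteasome subunits had 10 of 13 members higher and 0 lower, among them B2m, the light chain of class I, at 304, 478, 585, 558, 701 and 493 CPM. Their median slope was 0.25, and 0.09 without IRP2. All 20 interferon-response genes had a positive slope, with 7 higher and 0 lower at the same limit. Gbp7 and Gbp2, interferon-induced guanylate-binding proteins, had 32.6, 45.4, 45.7, 46.0, 54.4 and 50.2 CPM and 18.7, 34.2, 32.4, 31.8, 50.7 and 38.2 CPM. Both were low in IRP2 and high in IRP1, and level in the 3 libraries between. Without IRP2 the median slope of the interferon list was -0.01, with 10 positive and 10 negative members, so its direction rests on that library.

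The window of Gbp2, chr3:142620413-142620662 on the plus strand, is shown with the interferon-stimulated response element in capitals, searched on both strands as TTTC, any 2 bases and TTTC again.
Gbp2: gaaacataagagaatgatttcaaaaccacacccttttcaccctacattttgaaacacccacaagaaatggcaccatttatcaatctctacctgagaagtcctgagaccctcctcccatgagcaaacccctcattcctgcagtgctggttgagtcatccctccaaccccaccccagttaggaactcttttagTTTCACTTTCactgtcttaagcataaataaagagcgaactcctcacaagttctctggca
It begins 59 bases before the start. A match was found in 9 of the 18 tested interferon-response genes in the table, against 3.46% of all genes. It was found in 0 of the 4 class II genes, in 3 of 19 macrophage genes and in 1 of 17 matrix genes. An AP-1 motif, TGANTCA, was found in 5 of the 18 interferon-response genes, 2 of the 4 class II genes, 3 of 19 macrophage genes, 1 of 17 matrix genes and 7.82% of all genes.

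Complement genes had 9 of 14 members higher and 0 lower. C3, the central component, had 354, 720, 883, 950, 1029 and 813 CPM, and C3ar1, the receptor for its activation fragment, 13.3, 15.8, 21.3, 25.7, 31.5 and 24.0 CPM. In both genes the first 5 libraries climbed in Havcr1 order, and IRV4 broke it. Chemokines and cytokine genes had 8 of 12 higher and 0 lower, led by Tgfb1, the fibrogenic cytokine, with a slope of 0.33 ± 0.06 (SE; edgeR adjusted p = 0.085), and by the myeloid chemokine Ccl9 at 0.45 ± 0.09. For complement genes the median slope was 0.27 with IRP2 and 0.05 without it, and for chemokine genes 0.27 and 0.11.

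Of 6 genes of B, plasma and T cells 4 had a positive slope, with 2 higher and 0 lower and a median slope of 0.28, which was -0.11 without IRP2. Igkc, the kappa light chain of B and plasma cells, had 84.8, 387, 194, 176, 260 and 78.9 CPM, so that the libraries with the least and the most Havcr1 had about the same level. Its slope was -0.07 ± 0.34 (SE; edgeR adjusted p = 0.923), and it turned to 0.30 with treatment as a covariate and to 0.08 with library totals. Ptprc, the leukocyte surface phosphatase CD45, had 54.9, 85.0, 102, 111, 113 and 98.7 CPM, climbing over the first 5 libraries. Of the 13 neutrophil genes listed, 0 passed the filter; S100a8 and S100a9 were at 0 to 1.93 CPM in the 6 libraries. Lysosomal genes, which macrophages and proximal tubule cells both use, had 5 of 21 higher and 0 lower and a median slope of 0.01, which was -0.01 with DESeq2's size factors.

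Transport and enzyme genes of the proximal tubule went against Havcr1. Of 38 transport genes 25 were lower and 1 higher at an unadjusted p under 0.05, with a median slope of -0.21; of 45 enzyme and uptake genes 26 were lower and 1 higher, with a median of -0.22. Slc34a1, the apical phosphate transporter, had 2892, 2097, 1940, 1794, 1541 and 2033 CPM. Lrp2, the endocytic receptor megalin, had 3296, 2022, 2286, 2041, 1596 and 2537 CPM. IRP2 was high and IRP1 low in both, and IRV4 stood with the libraries of little Havcr1. The slope of Slc34a1 was -0.24 ± 0.08 and that of Lrp2 -0.20 ± 0.10 (SE; edgeR adjusted p = 0.126 and 0.266), the latter 0.06 without IRP2.

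Some proximal tubule genes kept to the order more closely. Slc7a9, the light subunit of the apical cystine transporter, had 58.0, 44.9, 36.8, 37.1, 36.3 and 35.8 CPM, with a slope of -0.26 ± 0.05 (SE; edgeR adjusted p = 0.085). Slc5a2, the glucose transporter SGLT2 of the early segment, had 221, 148, 139, 128, 113 and 137 CPM. Miox, which opens inositol in the proximal tubule, had 685, 483, 459, 316, 308 and 412 CPM. The exception upward among the transporters was Abcc4, an apical exporter of organic anions, at 72.0, 81.9, 99.4, 95.5, 113 and 102 CPM. Without IRP2 the median slopes were -0.03 for transport and -0.04 for enzymes, against 0.02 for all genes.

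In the loop of Henle, distal tubule and collecting duct the median slopes were much the same with and without IRP2. Of 24 loop and distal genes 15 were lower and 0 higher, with a median slope of -0.28 in either case. Of 18 collecting duct genes 13 were lower and 0 higher, with medians of -0.30 and, without IRP2, -0.34. The library farthest from the mean of both lists was IRP1, however. The loop and distal list was at -0.71 log2 units from its mean in IRP1 and at -0.20 in IRV3, the next lowest. The collecting duct list was at -0.84 in IRP1 and -0.17 in IRV3. Without IRP1, 0 of the 34 list medians turned sign, but the size of these medians without it is not given here. Umod, uromodulin of the thick ascending limb, had 2174, 2196, 1882, 1720, 1428 and 1578 CPM. Bsnd, the chloride channel subunit barttin, had 62.1, 60.3, 45.5, 33.2, 28.3 and 34.8 CPM. In both the 3 libraries with the least Havcr1 lay above the other 3. The slopes were -0.21 ± 0.07 and -0.41 ± 0.08 (SE; edgeR adjusted p = 0.14 and 0.085).

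In the collecting duct IRP1 set the low end. Aqp2, the vasopressin-regulated water channel of principal cells, had 32.8, 43.8, 29.4, 18.2, 6.25 and 17.7 CPM. Aqp3, their basolateral water channel, had 63.0, 54.6, 38.4, 34.5, 19.95 and 36.6 CPM. Rhcg, an ammonia channel of intercalated cells, had 67.2, 54.6, 47.3, 31.3, 17.2 and 32.3 CPM. In each of the 3 genes the IRP1 value was below all others and the 3 libraries of low Havcr1 again lay above IRV3 and IRV4. Since the 3 libraries of low Havcr1 are all from PJ34-treated mice, only IRP1 has PJ34 together with high Havcr1. With treatment as a covariate the median slopes were -0.35 for both lists.

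Transcripts of mitochondria were lower with Havcr1 as a whole. All 13 mitochondrial genome transcripts and 49 of 55 nuclear respiratory chain genes were lower at an unadjusted p under 0.05, with 0 higher in either list and median slopes of -0.39 and -0.20. mt-Nd3, a subunit of complex I, stood in strict reverse order of Havcr1 at 1281.5, 771, 650, 488, 365 and 328 CPM, 3.90-fold from end to end. Its slope was -0.67 ± 0.08 (SE; edgeR adjusted p = 0.0654), with r = -0.96 and rho = -1 (exact permutation p = 0.00139 and 0.00278, adjusted 0.273 and 0.566) and r = -0.93 without the 2 libraries farthest from the median. The p of 0.00278 is the smallest that the orders of 6 libraries can give for rho, and 25 of the 7683 genes shared it. The lowest adjusted exact permutation p for rho over all genes was 0.566. A strict order, here as in other genes, also uses the order of IRV3 and IRP1, which is not resolved.

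Uqcrq, a subunit of complex III, had 73.3, 57.9, 49.9, 37.3, 35.03 and 36.9 CPM and a slope of -0.40 ± 0.05 (SE; edgeR adjusted p = 0.0678). Ndufa4, a respiratory chain subunit, had 209, 180, 146, 119.5, 126 and 129 CPM. The 3 libraries with the most Havcr1 were low and close together in both. Without IRP2 the median slopes were -0.28 for the mitochondrial genome and -0.14 for the nuclear genes. The respiratory genes therefore kept more of their slope than the proximal tubule transporters did, a difference that was not tested.

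Citric acid cycle genes had 15 of 20 lower and 0 higher, and fatty acid oxidation and peroxisome genes 17 of 40 lower and 0 higher. Their median slopes of -0.17 and -0.13 were -0.05 and -0.06 without IRP2. Acads, the short-chain acyl-CoA dehydrogenase, was in strict reverse order at 91.7, 73.2, 70.4, 62.6, 60.2 and 58.1 CPM. Glycolysis and hypoxia genes had 9 of 20 lower and 2 higher, and their median slope of -0.10 became 0.01 with library totals. Among antioxidant genes 10 of 29 were lower and 1 higher, among them Gpx4, which reduces lipid peroxides, at 273, 237, 221, 171, 194 and 187 CPM. When IRP2 was left out, the median slopes were -0.05 for glycolysis and hypoxia and -0.01 for antioxidant genes.

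Genes of growth, stress and signalling were mostly higher with Havcr1 where they stood out. Of 16 proliferation genes 8 were higher and 1 lower; Mki67, the antigen of cycling cells, had 31.9, 72.3, 72.6, 67.4, 94.7 and 73.5 CPM, with only IRP2 set apart below. Of 16 genes of p53 targets and senescence 3 were higher and 2 lower, where 11.9% and 12.4% of all genes were, with a median slope of 0.06. Trp53 itself had 25.9, 29.6, 34.8, 43.2, 42.7 and 36.8 CPM, and Cdkn1a, the gene of the cell cycle brake p21, lay below the filter at 10.8, 15.4, 22.7, 17.3, 27.7 and 17.9 CPM. Of 17 immediate early and heat shock genes 8 were higher and 0 lower, led by the zinc finger factor Klf6 at 106, 142, 137, 188, 205 and 169 CPM. Of 15 genes of the PARP family and ADP-ribose turnover 5 were higher and 1 lower. Parp1, the main enzyme that PJ34 inhibits, had 58.0, 64.6, 61.4, 61.4, 69.6 and 63.2 CPM and a slope of 0.05 ± 0.05 (SE; edgeR adjusted p = 0.575). Of 19 TGF-beta, Wnt and retinoid genes 10 were higher and 1 lower; Aldh1a2, which makes retinoic acid, had 17.1, 36.1, 49.1, 40.6, 52.6 and 43.4 CPM. The one lower was Bmp7, an epithelial growth factor that opposes TGF-beta, at 43.2, 41.2, 34.6, 36.2, 30.6 and 33.1 CPM. Median slopes with and without IRP2 were 0.20 and 0.08 for proliferation, 0.16 and 0.12 for the signalling list and 0.14 and 0.11 for immediate early genes.

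Podocyte and endothelial genes, which belong to cells outside the tubule, had small slopes that were mostly positive. In the podocyte list 15 slopes were positive and 4 negative, and in the endothelial list 14 and 5. Of 19 podocyte genes 4 were higher and 0 lower with a median slope of 0.08, and of 19 endothelial genes 1 was higher and 2 lower with a median of 0.05; without IRP2 these medians were 0.04 and 0.03. Pecam1, the endothelial adhesion molecule, had 75.1, 85.2, 80.1, 91.2, 79.1 and 76.6 CPM. In Pecam1 the libraries of low and high Havcr1 did not separate. Other members followed Havcr1 more closely over a narrow range. The endothelial genes Ptprb and Plpp3 had slopes of 0.07 ± 0.04 and 0.10 ± 0.04, with r of 0.92 and 0.90. The podocyte gene Pla2r1 had a slope of 0.20 ± 0.06 and r of 0.96. Osmolyte and medullary genes were mixed, with 1 of 11 higher and 4 lower and a median slope of 0.10 that was -0.02 without IRP2. Of 57 ribosomal protein genes 9 were higher and 0 lower at an unadjusted p under 0.05, where 11.9% and 12.4% of all genes were. Their median slope was 0.07, which was 0.02 without IRP2.

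Beyond the lists, the genes most like Havcr1 were taken by a rank correlation of at least 0.9 in size and a range of at least 0.5 log2 CPM over the 6 libraries; 29 genes were eligible as higher and 32 as lower. Vwa5a, a protein with a von Willebrand factor A domain, led by Pearson's r at 64.1, 78.2, 92.9, 95.002, 103 and 103 CPM. It was followed by the stress-activated kinase Mapkapk3, by Fam208b, and then by Spp1. Mdm4, which restrains p53, had 64.1, 72.7, 77.1, 86.8, 86.5 and 96.4 CPM. In Mdm4 IRV4 was the highest library, and in Vwa5a it was level with IRP1. Gbp6, Plp2, Cpe, Cyp4v3, Vars, Vcl and Malt1 completed the 12 higher genes, with slopes of 0.17 to 0.53. On the lower side Nme2, a nucleoside diphosphate kinase, had 158, 135, 119, 116, 118 and 111 CPM, and Mavs, the mitochondrial adaptor of RNA sensing, 68.1, 62.7, 53.3, 48.8, 49.96 and 44.99 CPM. Plekha7, Slc7a9, Acads, Uqcrq, Mrps6, mt-Nd3, Pllp, Cenpx, Cox7c and Cdkl1 made up the rest, with slopes of -0.67 to -0.20.

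**Figure D3:**
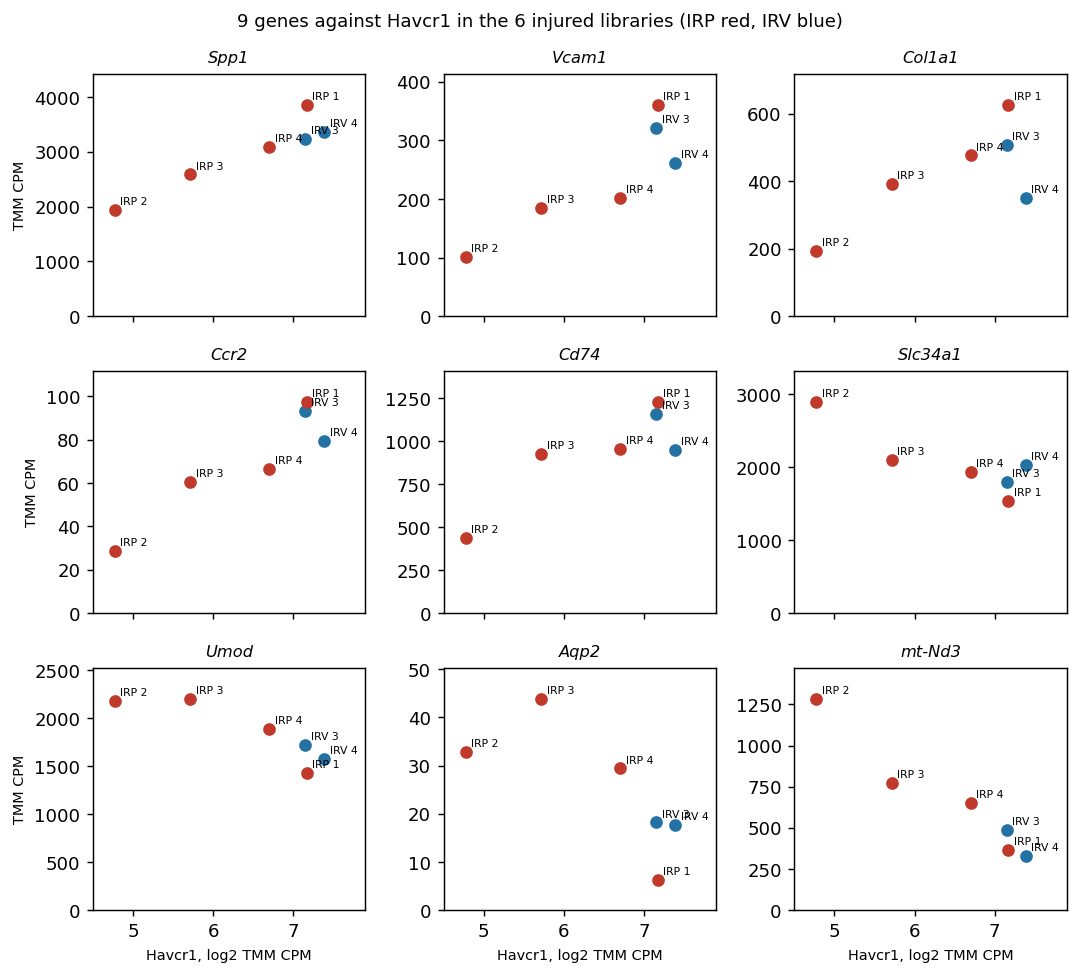
CPM of 9 genes (vertical axes from 0) against Havcr1 in log2 CPM in the 6 libraries, IRP in red and IRV in blue. mt-Nd3 goes steadily down with Havcr1 from 1281.5 to 328 CPM, whereas in Col1a1 and Slc34a1 IRV4 lies near the libraries with little Havcr1.

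Within the 4 IRP libraries, where treatment does not vary, Havcr1 ordered them IRP2, IRP3, IRP4 and IRP1. In that order 13.2% of all genes went strictly up and 11.7% strictly down. The counts were 17 of 30 matrix genes up and 0 down, 16 of 27 injury markers up and 0 down, 13 of 22 macrophage genes up and 0 down, and 31 of 55 respiratory chain genes down and 0 up. Of the 34 lists, 9 had means that went up in this order and 6 had means that went down. The 2 vehicle libraries gave the opposite picture for several lists: IRV4 had more Havcr1 than IRV3, but its mean level was 0.37 log2 units lower in the matrix list, 0.32 lower in the macrophage list and 0.27 higher in proximal tubule transport, with 1 library on each side and no test.

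A comparison that shares no library with the 6 was available in the shallow libraries, where IRV1 and IRV2 were set against the 4 NV libraries, with NP in the same fit. Of the 7675 genes also tested on Havcr1, 695 (9.06%) passed edgeR's test as higher in injury and 792 (10.3%) as lower, at an adjusted p under 0.05. Of the 695, 680 had a positive slope on Havcr1 in the 6 libraries, and of the 792, 779 had a negative one, together 98.1%; over all 7675 genes the signs matched in 76.3%. The median slopes of the genes called higher and lower were 0.22 and -0.19. Without IRP2 the signs of called genes matched in 77.0%, with 577 of 707 higher genes and 572 of 785 lower genes. Over all 7794 genes tested in both they then matched in 60.8%, and 59.2% of the slopes were positive. Without IRV1 the contrast itself called 441 higher and 100 lower over the 12862 genes tested, where with it 762 (5.92%) and 877 (6.82%) were called.

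Matrix, macrophage and respiratory genes changed in that injury contrast in the direction they took along Havcr1. Higher were 27 of 30 matrix genes, 21 of 22 macrophage genes, all 7 class II genes and 20 of 27 injury markers, with 0 lower in each. These members had been kept by their mean CPM in the injured libraries ordered by Havcr1. A gene low in normal kidneys could pass that limit through its level after injury, which favours genes higher in injury. The part of the limit in these shares was not tested. Lower were 28 of 38 proximal tubule transport genes, 35 of 45 enzyme genes, 44 of 55 respiratory genes and 10 of 13 mitochondrial genome transcripts, with 0 higher. Col1a1 rose by 2.95 ± 0.25 log2 units, Lyz2 by 3.56 ± 0.32 and Cd74 by 3.15 ± 0.20 (SE; edgeR adjusted p = 6.38e-08, 1.93e-07 and 8.49e-09). Slc34a1 fell by 1.19 on the log2 scale (SE 0.23; edgeR adjusted p = 0.00163).

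**Figure D4:**
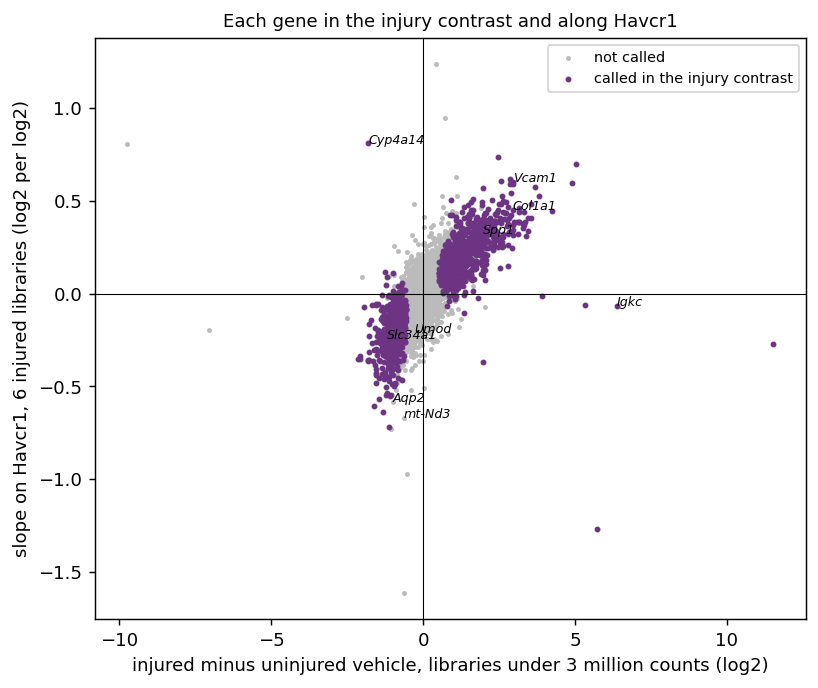
Slope on Havcr1 in the 6 injured libraries against the log2 difference between injured and normal vehicle kidneys in the shallow libraries, 1 point per gene, purple where the injury contrast was called. Of the called genes, 680 of 695 higher and 779 of 792 lower ones have a slope of the same sign; Igkc and Cyp4a14 are among those that do not.

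In the collecting duct 13 of 18 genes were lower with Havcr1, and 2 were lower and 1 higher in the injury contrast, with a median difference of -0.10 log2 units. Aqp2 had -0.996 ± 0.337 and Aqp3 -0.86 ± 0.34 (SE; edgeR adjusted p = 0.0556 and 0.113). Rhcg had -0.41 ± 0.24 and Tfap2b, a transcription factor of the distal nephron, 0.28 ± 0.22 (SE; edgeR adjusted p = 0.323 and 0.517). Whether the lists differ between the 2 settings was not tested. Ribosomal protein genes had 0 called in either direction by edgeR, with a median of 0.03.

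Among the 28 called genes whose slope had the other sign were 4 immunoglobulin genes, Ighm, Igkc, Ighg2b and Ighg2c, named here after their values were seen. Their slopes were -0.06 ± 0.30, -0.07 ± 0.34, -0.01 ± 0.49 and -1.27 ± 0.60 (SE; edgeR unadjusted p = 0.836, 0.849, 0.978 and 0.0665), so their signs are not resolved. Ighm had 41.6, 178, 123, 53.01, 106 and 65.5 CPM along Havcr1 and was 5.32 log2 units higher in injury (edgeR adjusted p = 5.39e-07). Their level in the 6 libraries was highest in IRP3 for Igkc, Ighm and Ighg2c. Another was Cyp4a14, a fatty acid omega-hydroxylase, also named after its values were seen, which fell by 1.81 log2 units in injury (edgeR adjusted p = 0.000598) but had 16.0, 28.0, 89.3, 27.8, 56.2 and 96.4 CPM along Havcr1. The slope of Cyp4a14 was 0.81 ± 0.26 (SE; edgeR unadjusted p = 0.013).

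Markers of other tissues moved with single libraries. Adipoq, the fat cell hormone, had 31.8 CPM in IRP1 and 9.01 to 16.6 in the others. All 4 tested members of the list of 20 adipose, adrenal and muscle genes were highest in IRP1, among them Fabp4 at 217 CPM against 61.8 to 120.5 and Cfd at 147 against 25.9 to 52.6. The steroid gene Star was at 0.806 to 2.94 CPM and the muscle gene Ckm at 0 to 0.184. Erythrocyte genes had 2 of 5 lower and 0 higher, and haemoglobin transcripts summed to 186 CPM in IRP2 and 92.2 to 126 in the others. The part of these tissues in the levels of IRP1 and IRP2 was not tested.

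Transcript length, taken as that of the longest annotated GENCODE transcript of each gene, went with the slope across genes. The Spearman correlation was 0.25 over 7676 genes, which are not independent replicates. The transcripts expressed in these kidneys may be shorter and were not measured. The median length was 4531 bases for the genes higher at an unadjusted p under 0.05 and 2636 for the lower ones, against 3880 for all. The matrix list had a median of 5042 bases and the respiratory chain list 1232. Injury markers had 1888 and ribosomal protein genes 1128, both with positive median slopes. Without IRP2 the median slope of ribosomal protein genes was 0.02, the same as that of all genes. When the genes were split by length into 5 equal bins, 37.2% of slopes were positive in the shortest bin and 68.6% in the longest. In each bin 96.3% to 99.4% of the genes called higher in the injury contrast had a slope of the same sign. For those called lower the share was 96.6% to 99.3%. The part of transcript length in either fit was not tested.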

How the data were processed

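Poly(A) RNA of 16 kidneys, 4 in each of 4 groups, was sequenced from directional libraries, per the labels' protocols. The submitters' processing notes name Trim Galore 0.6.6, FastQC 0.11.3, Salmon 1.3.0, DESeq2 1.30.1 and build GRCm39, without their order. The values deposited by the authors are estimated counts per gene, and they were used here as deposited, without rounding. Symbols were matched for 40276 of 40472 gene identifiers from GRCm38 names, and promoter windows are RefSeq's for GRCm38.p6. No coordinates come from the deposited tables.

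Counts of the 6 libraries were scaled by TMM in edgeR 4.0.16 (R 4.3.3), genes with a mean of 20 CPM or more were kept, and the slope of each gene on the log2 CPM of Havcr1 (prior count 2) was tested by edgeR's quasi-likelihood test with Benjamini-Hochberg adjustment over all genes tested. Correlations used all 720 orders of the 6 libraries. The injury contrast was fitted on the 10 shallow libraries, which were scaled by TMM on their own. Fits were tested on simulated data with 200 changed genes. Alternatives used limma 3.58.1, DESeq2 1.42.0, other scalings, filters and axes, treatment as a covariate, and libraries left out in turn.

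The libraries, the 35 gene lists and the tests were chosen with earlier results of these data known. Named genes were the 12 with the highest and the 12 with the lowest Pearson correlation among those with a rank correlation of at least 0.9 in size and a range of at least 0.5 log2 CPM, leaving out unnamed gene models, pseudogenes and immunoglobulin or T cell receptor segments. To these were added up to 4 members of each list with the largest correlation in size, and preset markers, of which 1 is not reported here. Names outside this rule (H2-Aa, H2-DMb1, Ighm, Ighg2b, Ighg2c, Cyp4a14, and the tissue markers S100a8, S100a9, Adipoq, Star and Ckm) were chosen after their values were seen. The labels do not say that replicates are separate animals, so every p-value reflects only how these libraries vary, which may be technical. Reads of near-identical genes, such as class I, class II and immunoglobulin genes, may be shared among them.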

Additional observations from a re-analysis of the deposited data

Results flagged for a closer look

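In 4 of the 76 values checked, 1 library stood farther from the other 5 than Dixon's 95% limit allows; chance alone does so in about 1 of 20 groups. On the log2 CPM scale IRP2 was low in Gbp6, an interferon-induced guanylate-binding protein, at 3.72 with the next library at 4.776. It was low in Cd74, the class II invariant chain, at 8.769 against 9.855, and in Mki67, the marker of cycling cells, at 5.013 against 6.081. IRP2 was high in Cenpx, a centromere protein, at 4.962 against 4.488.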

How the results depend on the processing

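With 6 libraries and edgeR, 0 genes passed in either direction, and this count was also 0 with DESeq2's size factors, filterByExpr, limma-voom and, an alternative chosen after seeing the data, mitochondrial transcripts removed before scaling. It moved to 1236 higher and 67 lower with library totals, 357 and 344 with no filter, 0 and 1 on the rank of Havcr1, 1043 and 1084 on the mean of the injury markers, 65 and 51 with treatment as a covariate, 447 and 497 in IRP alone, 1 and 1 without the 2 libraries farthest from the median, and 229 and 233 by DESeq2's Wald test; the cause was not tested. With each library left out, 0 to 540 genes were higher and 0 to 857 lower, the upper values without IRV4. Rank correlations of 0.9 or more numbered 122 and of -0.9 or less 82; these were 73 (higher) with DESeq2's size factors, 297 and 27 with library totals, 237 and 158 with filterByExpr, 1803 and 274 with no filter, 485 and 449 on the marker mean, and 72 to 427 and 34 to 405 with each library left out. The injury contrast gave 762 and 877 genes, and 441 to 676 and 100 to 989 with each IRV or NV library left out, the lowest of both without IRV1; NP libraries were not left out. Genes of the same sign were 76.3% of all and 98.1% of those called; with library totals these were 64.0% and 91.9%, and with each of the 6 libraries left out 60.8% to 77.95% and 77.0% to 98.65%. With the replicate block the injury contrast gave 569 higher and 628 lower. Deviations of same-numbered shallow libraries correlated at -0.166 to 0.176, which cannot exclude a pairing, and the 6 libraries ordered by Havcr1 were not checked. The labels do not say that numbers pair animals, so the numbers are used here as names only. The injury contrast has 2 injured libraries, and its libraries hold 973812 to 1659983 counts.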
